A study of Pseudotsuga menziesii with 26 samples.

Results

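The 200 transcripts described here are those whose levels varied least between deeply sequenced needle libraries of Douglas-fir (Pseudotsuga menziesii) seedlings, among transcripts of middling abundance. They were taken from a count table of 173882 transcripts. Identifiers up to psme_t000300 were first set aside, as were a further 21 dominant transcripts, meaning any with above 1% of some library's counts. The 200 were then chosen by their CPM values, that is, counts per 1000000 of the counts left in a library. A mean of 20 to 100 CPM over the 15 libraries with at least 10000000 counts was required, together with fewer than 10 counts in at least 1 of the other 11 libraries. Of the 5490 transcripts that met both conditions, called candidates here, the 200 with the lowest coefficient of variation (CV, the standard deviation divided by the mean) were kept, which is 3.64% of the candidates. The label of steady, mid-abundance transcripts therefore restates the rule, and the CV below is a description and not a finding.

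A transcript is called steady when its share of the RNA changes little between individuals and conditions. In plants such transcripts often come from genes for basic cell functions such as protein turnover, vesicle traffic or RNA processing, and they are used as internal references in RT-qPCR, where a target is measured relative to a transcript assumed not to move. A reference has to be steady in the very tissue and treatment studied, since a transcript that is even across healthy leaves can still move with stress, age or RNA quality. The identifiers in the files carry no gene names, so no function is given to any transcript below, and the labelled tissue was not checked against marker genes.

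The material was the needles of the previous year from potted half-sib seedlings standing in shared trays, sequenced as 26 libraries of poly(A) RNA. The seedlings spent 2 weeks of December, when needles were dormant, in exposure chambers of 984 L under 16 h of light a day, with exposures lasting 6 h on each of 5 days per week. Air Control seedlings (n = 6) received air cleaned by charcoal, Purafil and HEPA filters. DE seedlings (n = 7) received emissions of a diesel fuel, and DECe seedlings (n = 7) those of diesel fuel with engineered CeO2 (cerium dioxide) nanoparticles as a catalyst. DECe Gas Phase seedlings (n = 6) received the DECe emissions after a HEPA filter had taken out the particles. All chambers received filtered air between the exposures. Each atmosphere had 1 chamber, so an atmosphere and its chamber cannot be told apart, and the labels do not say that each library is a separate seedling, so p-values cover the spread between these libraries, which may be technical.

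Depth moved with the groups. The 15 deep libraries (12404373 to 60457187 counts) were all 6 of Air Control, 1 of 7 in DE, 4 of 7 in DECe and 4 of 6 in DECe Gas Phase. The 11 shallow libraries (2467403 to 9017951 counts) were the other 6 of DE, 3 of DECe and 2 of DECe Gas Phase. With the identifiers up to psme_t000300 and the dominant transcripts set aside, 5877385 to 33262997 counts were left in the deep libraries. In the shallow libraries 146265 to 722141 were left. Shallow libraries thus stand apart, and levels are given for the deep and the shallow libraries separately. A fit over all 26 libraries, which pools them, comes last and is named as such. In whole needles, fewer cells of a type and less RNA per cell cannot be told apart.

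Across the deep libraries the steady transcripts ranged in CV from 0.0863 to 0.200, with a median of 0.180. The median candidate had a CV of 0.366 and the highest 3.74. Counting error alone would give the steady transcripts a median CV of 0.0451, and it made up 6.73% of the squared CV of the median steady transcript. That figure counts reads as independent molecules. Every steady transcript had at least 86 counts in every deep library. Between the lowest and the highest deep library the median steady transcript differed 1.91-fold, and the largest such ratio was 2.62. The ratio was under 2-fold for 128 of the 200 and for 3.15% of the candidates. Their mean levels spread over the whole window, from 20.8 to 98.0 CPM with a median of 39.5 CPM, against a median of 36.6 CPM for the candidates.

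**Figure D1:**
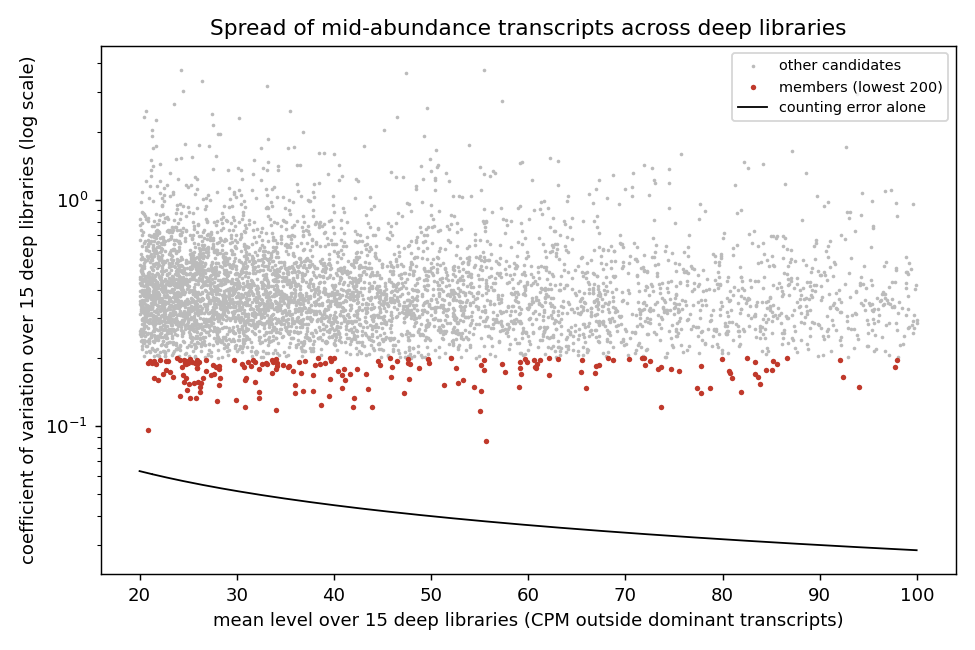
Coefficient of variation over the 15 deep libraries (vertical axis, log scale) against the mean level over the same libraries in CPM (horizontal axis) for the 5490 candidates, with the 200 steady transcripts in red and the spread that counting error alone would give as a black line. The steady transcripts lie between 0.0863 and 0.200 at all levels and above the line.

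The steadiest transcript was psme_t018546 (2086 nt). Its level in the 6 Air Control libraries was 46.0 CPM at the lowest, 56.0 CPM at the median and 61.0 CPM at the highest. DE replicate 5, the deep DE library, was at 53.4 CPM. The 4 deep DECe libraries ran from 52.2 to 62.4 CPM and the 4 deep DECe Gas Phase libraries from 49.7 to 57.5 CPM. All 4 groups overlapped, and the highest deep library was 1.36 times the lowest.

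The second, psme_t011516 (2627 nt), was also the least abundant of the 200, at a mean of 20.8 CPM. It ran from 17.9 to 22.8 CPM in Air Control (median 20.7 CPM), stood at 21.6 CPM in the deep DE library, and ran from 18.9 to 21.8 CPM in deep DECe and from 17.5 to 24.7 CPM in deep DECe Gas Phase libraries. Its extremes both fell in DECe Gas Phase. The third, psme_t015398 (2296 nt), had its lowest deep level, 44.0 CPM, in Air Control and its highest, 66.8 CPM, in DECe Gas Phase. The fourth, psme_t016678 (2210 nt), had an Air Control median of 34.3 CPM, and 1 Air Control library, replicate 15, was above all other deep libraries at 45.8 CPM.

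The cut at 200 fell in a dense part of the CV distribution. Just inside it were psme_t012925 (2496 nt) and psme_t022795 (1838 nt), with CVs of 0.2004 each. Just outside it were psme_t017502 (2152 nt) and psme_t012215 (2559 nt), at 0.2004 and 0.2008. These 4 transcripts ran over 26.5 to 57.4, 41.7 to 84.7, 19.7 to 37.9 and 32.2 to 67.1 CPM in the deep libraries, so the cut separates transcripts of like spread. The condition on the shallow libraries left out 51 transcripts with at least 10 counts in each of the 11. The steadiest of these ranked 255 by CV, and the same 200 transcripts were kept with or without that condition.

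Length was not used to rank the candidates. The lengths implied by the deposited RPKM values (reads per kilobase of transcript per 1000000 counts) ran from 476 to 6947 nt in the steady transcripts, with a median of 2050 nt, against 2228 nt in the candidates. Steady transcripts were drawn from a narrower band of lengths. From 1000 to 3000 nt there were 88.5% of them and 67.0% of the candidates. Over 4000 nt there were 7 of the 200 (3.50%) against 10.9% of the candidates, and under 1000 nt 2 of the 200 (1.00%) against 6.68%. These shares are a description of the chosen list and carry no test.

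**Figure D2:**
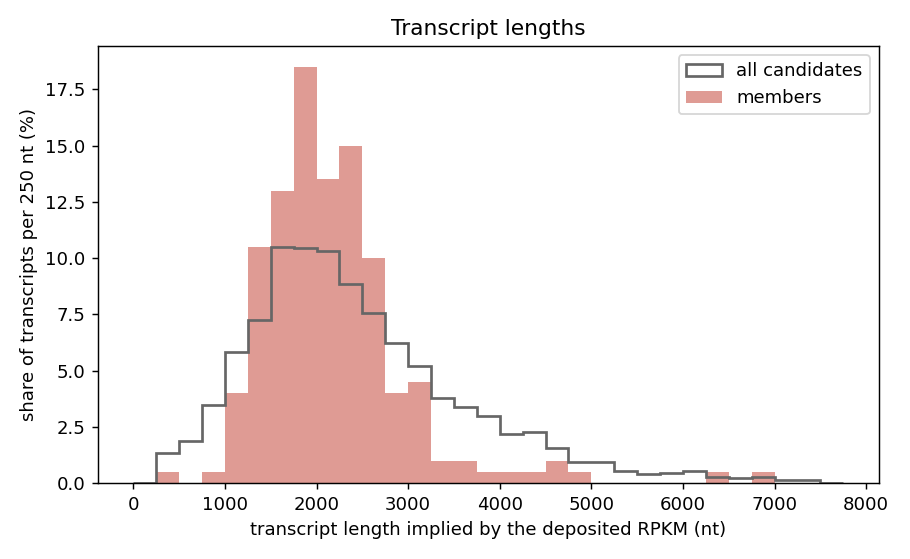
Share of transcripts per 250 nt of length (vertical axis, %) against transcript length in nt implied by the deposited RPKM values (horizontal axis), for the 200 steady transcripts (red) and all 5490 candidates (grey outline). The steady transcripts crowd between 1000 and 3000 nt, with 88.5% there against 67.0% of the candidates.

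The longest was psme_t000426 (6947 nt), at 32.1 to 53.4 CPM in the deep libraries, and the shortest psme_t107944 (476 nt), at 19.7 to 47.9 CPM. Per length their levels lay far apart, at 3.34 ± 1.30 RPKM in Air Control for the longest and 40.6 ± 18.1 RPKM for the shortest (SD, n = 6). Over the 200, the mean Air Control level per length ran from 1.97 to 45.4 RPKM with a median of 9.81 RPKM, against a median of 8.25 RPKM for the candidates. The top of that range was psme_t044593 (1059 nt), which was also the most abundant in CPM. In Air Control it ran from 77.7 to 117.6 CPM with a median of 94.9 CPM. The 4 deep DECe libraries ran from 87.5 to 124.2 CPM and the 4 deep DECe Gas Phase libraries from 91.7 to 123.6 CPM. The deep DE library was the lowest of all, at 50.3 CPM.

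Within the deep libraries the exposure groups lay close to Air Control for these transcripts, as the choice by CV requires. The log2 ratio of the mean in deep DECe libraries (n = 4) to that in Air Control (n = 6) ran from -0.39 to 0.52 with a median of 0.01, and 105 of 200 were above 0. For deep DECe Gas Phase libraries (n = 4) it ran from -0.58 to 0.43 with a median of -0.01, and 97 were above 0. None of the 200 passed 2-fold in either ratio, against 7.14% and 6.54% of the candidates. The single deep DE library spread more widely, from -1.07 to 0.69 with a median of -0.02, and 2 of the 200 and 27.9% of the candidates passed 2-fold there. The CV of the median steady transcript was 0.157 within Air Control and 0.175 over the 9 exposed deep libraries.

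The small spread that was left followed particular libraries. Air Control replicate 11 was the lowest deep library for 44 of the 200, DECe Gas Phase replicate 3 for 32 and Air Control replicate 14 for 29. Air Control replicate 15 was the highest for 34 and DE replicate 5 for 27. DE replicate 5 was also the lowest for 20. The summed level of the 200 showed the same libraries, at 8427 CPM in Air Control replicate 11, 8347 CPM in replicate 14 and 8371 CPM in DECe Gas Phase replicate 3, against a highest value of 10011 CPM in Air Control replicate 15. Over the 15 libraries the sum was 9130 ± 476 CPM (SD, n = 15), a CV of 5.21%, and the sum over all candidates had a CV of 10.6%. The candidates' sum was also low in Air Control replicates 11 and 14, at 80.4% and 79.5% of its deep mean. In Air Control replicate 14 the counts left after setting aside the identifiers up to psme_t000300 and the dominant transcripts were 16.96% of the library. This was the lowest share among the deep libraries. The part of these shares in the low levels was not tested.

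The shallow libraries took no part in the CV. They entered the choice through the 1% limit on dominant transcripts and the condition of fewer than 10 counts in at least 1 of them, and the latter changed none of the 200. In these libraries the 200 were not level. Their summed level, as a percentage of the mean over the deep libraries, was 8.57% to 55.0% in the 6 shallow DE libraries (median 13.8%). It was 33.1%, 37.2% and 83.4% in DECe replicates 5, 10 and 15, and 93.9% and 61.5% in DECe Gas Phase replicates 4 and 5. The deep libraries ran from 91.4% to 109.7%, so of the shallow ones DECe Gas Phase replicate 4 alone lay within their range. The 2745 candidates of lowest CV, which include the 200, were lowest in DE replicate 4, at 10.9%, and highest in DECe Gas Phase replicate 4, at 90.5%. The sum over all candidates lay nearer its own deep mean in several libraries. It was at 21.0% against 8.57% for the 200 in DE replicate 4 and at 27.2% against 12.4% in DE replicate 8. In DE replicate 1 it was at 47.5% against 29.5%. In DECe Gas Phase replicates 4 and 5 the 200 were the nearer, at 93.9% and 61.5% against 92.7% and 58.9%. The median steady transcript had a log2 ratio of shallow to deep mean level of -1.35 (0.5 CPM added to each), and the median candidate -1.38. With CPM of the full library total, dominant transcripts included, the ratio of the 200 was -3.46. The highest ratio of the 200 under another scaling or calculation was -0.98.

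**Figure D3:**
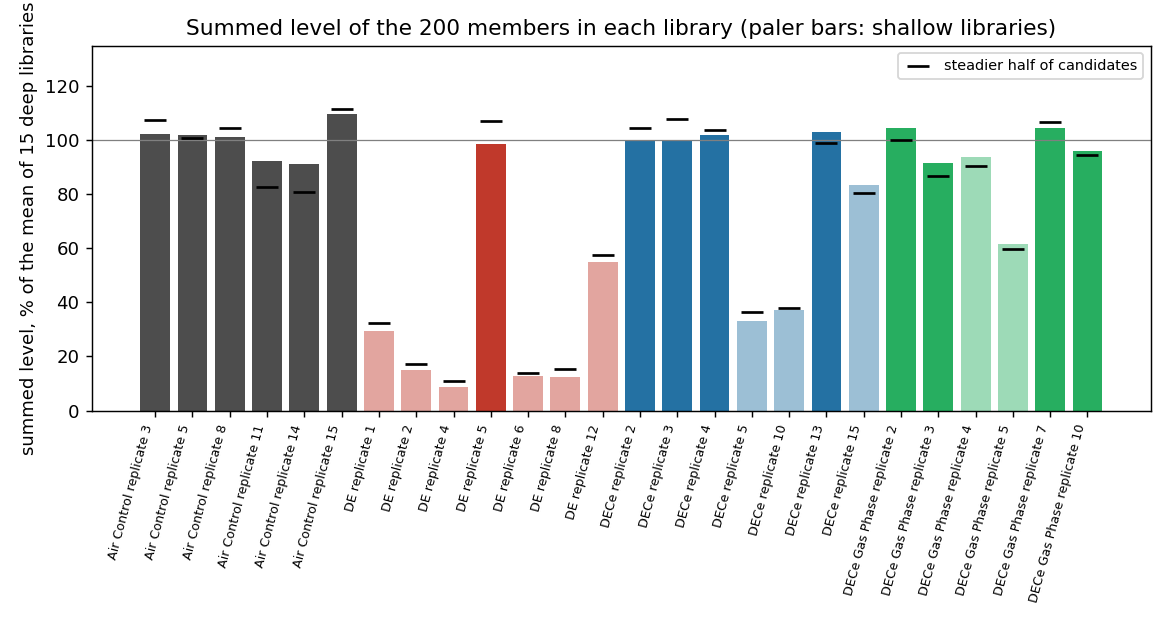
Summed level of the 200 steady transcripts in each of the 26 libraries as a percentage of the mean over the 15 deep libraries (bars, coloured by group, paler for shallow libraries). Black dashes give the same for the 2745 candidates of lowest CV. Deep libraries lie between 91.4% and 109.7% and shallow DE libraries between 8.57% and 55.0%.

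Many steady transcripts were not counted at all in shallow libraries. Of the 200, 124 were at 0 counts in DE replicate 4, 124 in DE replicate 8, 81 in DE replicate 1, 79 in DE replicate 6 and 45 in DE replicate 2. In DE replicate 12 and in DECe Gas Phase replicate 4 none was at 0. DECe replicates 5, 10 and 15 had 17, 31 and 15 at 0 and DECe Gas Phase replicate 5 had 19. Poisson counting at the level of the 2745 candidates of lowest CV in that same library, with no other spread, would leave 68.3 of the 200 at 0 in DE replicate 4, 12.2 in DE replicate 2, 3.14 in DECe replicate 5 and 0.490 in DECe replicate 10. At the deep level of each transcript it would leave 0.171 in DE replicate 4. The part of depth in the zeros was not tested. The level that a count of 0 allows, 3 counts, came to 4.15 to 20.5 CPM in the shallow libraries. At least 1 shallow library was at 0 for 185 of the 200 (92.5%), and for 92.4% of the candidates.

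The distance of single transcripts from their deep level differed between shallow libraries. After each shallow library was scaled by the 2745 candidates of lowest CV, the share of the 200 within 2-fold of their deep mean was 83.5% in DECe Gas Phase replicate 4, against 67.9% of all candidates. In DECe Gas Phase replicate 5 it was 56.5% against 47.2%. The 1373 candidates of lowest CV, which include the 200, stood at 79.7% and 51.6% there. They were at or above the 200 elsewhere, with 82.1% against 81.0% in DE replicate 12, 62.6% against 61.5% in DECe replicate 5 and 61.1% against 61.0% in DECe replicate 15, but not in DE replicates 4, 6 and 8. In the other 9 shallow libraries the steady transcripts and the candidates lay closer, with 81.0% against 77.9% in DE replicate 12 and 61.0% against 57.1% in DECe replicate 15. In DE replicates 1 and 2 the order turned, at 34.0% against 35.4% and at 41.5% against 41.7%. Counting error alone would have put 99.4% of the 200 within 2-fold in DECe Gas Phase replicate 4, 91.6% in DECe replicate 10, where 45% were, and 45.2% in DE replicate 8, where 24.0% were. These shares describe single libraries and carry no test.

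**Figure D4:**
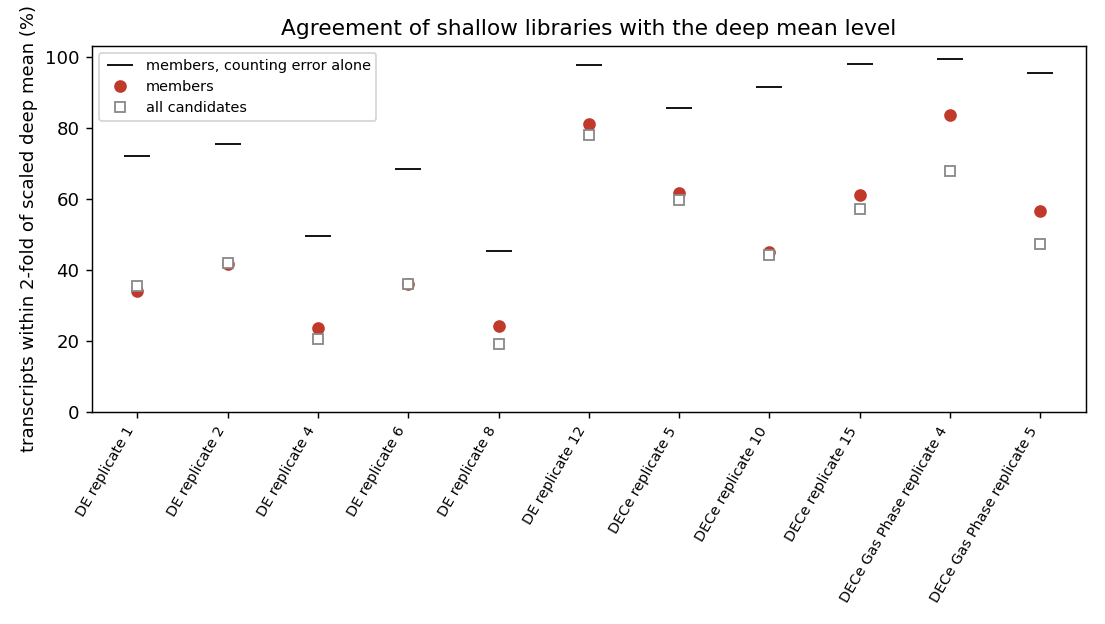
Share of transcripts within 2-fold of their deep mean level (vertical axis, %) in each of the 11 shallow libraries, after scaling by the 2745 candidates of lowest CV, for the 200 steady transcripts (red), all candidates (open squares) and the 200 under counting error alone (black dashes). Both observed shares lie below the dashes in all 11 libraries, and the red points lie farthest above the squares in DECe Gas Phase replicates 4 and 5.

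The steadiest transcripts differed among themselves in the shallow libraries. The leading one, psme_t018546, was at 0, 4.14, 20.9, 21.9, 25.97 and 40.2 CPM in the shallow DE libraries. In DECe replicates 5, 10 and 15 it stood at 31.3, 32.3 and 105.5 CPM, and in DECe Gas Phase replicates 4 and 5 at 51.2 and 23.4 CPM. DECe replicate 15 was thus above, and 9 of the 11 shallow libraries below, its whole deep range of 46.0 to 62.4 CPM. For psme_t011516, 6 of the 11 shallow libraries were at 0 and DE replicate 1 was at 31.4 CPM, from 6 counts.

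The fourth-ranked psme_t016678 split by group. It was at 0, 0 and 2.85 CPM in the shallow DECe libraries, from 1 count in all, and at 0 to 12.4 CPM in the shallow DE libraries. In DECe Gas Phase replicates 4 and 5 it reached 78.9 and 40.5 CPM, from 57 and 19 counts, both above its deep Gas Phase libraries (27.9 to 36.4 CPM). The split is described after its values were seen. The edgeR quasi-likelihood test of the shallow libraries did not call this transcript. Its adjusted p was 0.572 for DECe against DECe Gas Phase, 0.418 for DECe Gas Phase against DE and 0.719 for DECe against DE.

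**Figure D5:**
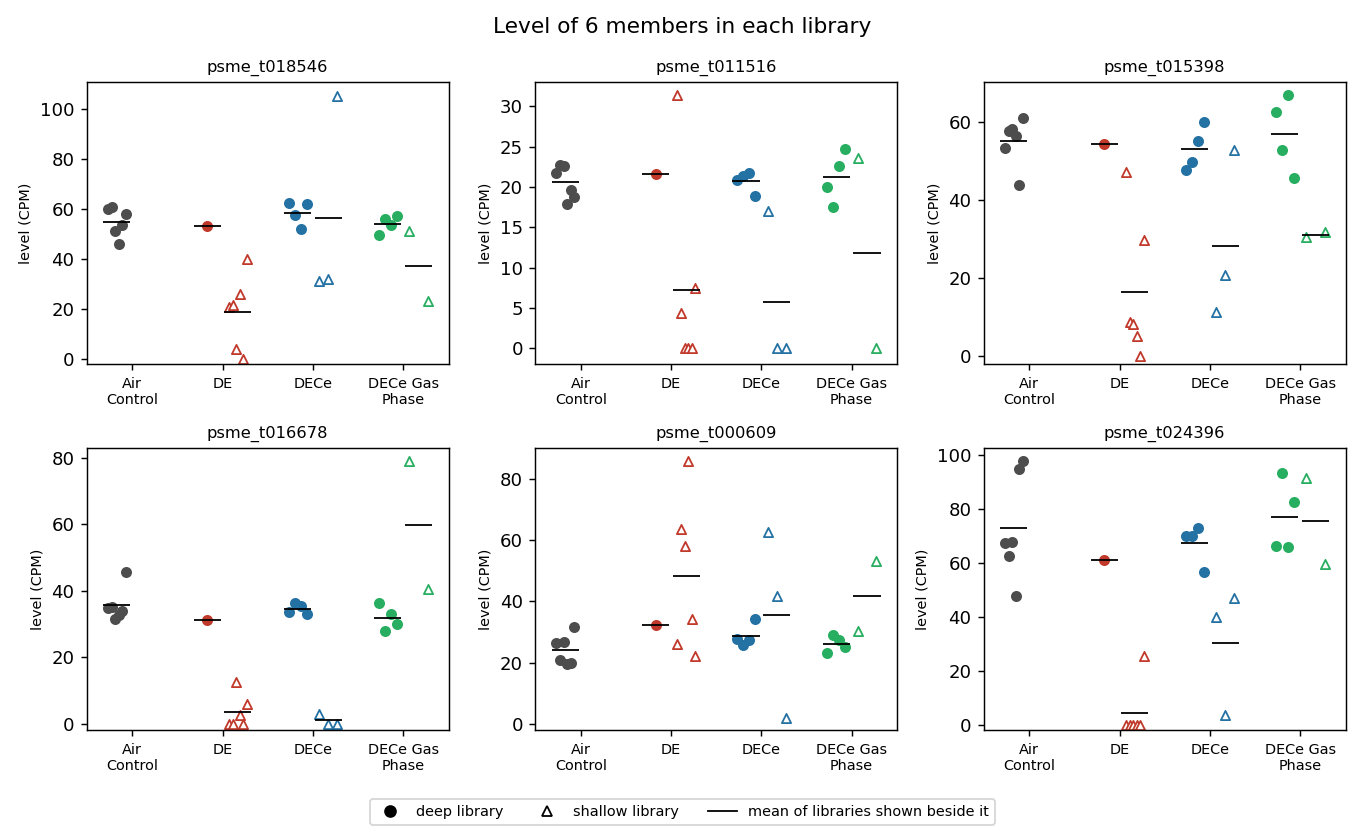
Level in CPM (vertical axis) of the 4 steadiest transcripts and of psme_t000609 and psme_t024396, by group, with filled circles for deep and open triangles for shallow libraries and a bar at the mean of each set. The mean of the shallow DE libraries lies below all deep libraries in 5 panels; for psme_t000609 it is 48.3 CPM, above the deep range of 19.7 to 34.1 CPM.

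A few of the 200 held or exceeded their deep level in shallow libraries. For 3 of the 200 the mean over the shallow libraries was above that over the deep ones. The highest ratio was that of psme_t000609 (6322 nt), with a log2 of 0.71. Its deep levels ran from 19.7 to 34.1 CPM, and its shallow DE levels were 22.3, 26.2, 34.2, 57.9, 63.4 and 85.7 CPM. DECe replicates 5, 10 and 15 were at 62.6, 41.8 and 1.95 CPM, and DECe Gas Phase replicates 4 and 5 at 30.5 and 53.3 CPM. All but 1 shallow library were thus at or above the lowest deep level, and the exception, DECe replicate 15, had 1 count. Next came psme_t010917 (2689 nt, log2 of 0.49), which was at 33.8 to 95.7 CPM in the shallow DE libraries against 20.6 to 41.3 CPM in the deep libraries, and was also lowest in DECe replicate 15, with 0 counts.

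At the other end, psme_t020025 (1996 nt) had a log2 ratio of -2.40. It was at 0 in 4 of the 6 shallow DE libraries and at 2.60 and 7.44 CPM in the others, against 18.2 to 30.9 CPM in the deep libraries. The next, psme_t024221 (1763 nt), had a ratio of -2.35 and reached 9.69 CPM at most in any shallow library, against 16.4 CPM at least in the deep ones. Both rested on 5 counts or fewer in every shallow library but DECe Gas Phase replicate 4, which had 14 and 7 counts.

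The atmospheres were compared without the libraries behind the CV in the shallow libraries, where Air Control has none. Of the 200, 188 passed the filter on low counts there. Between DECe and DE (n = 3 and 6), 0 of the 188 were called, beside a background of 0% of the 8905 transcripts tested (edgeR quasi-likelihood test, adjusted p under 0.05). At an unadjusted p under 0.05 there were 7 of the 188 and 575 of the 8905, and DESeq2 called 0 of the 188 and 4 of all. Between DECe Gas Phase and DE (n = 2 and 6), 0 of the 188 were called, beside a background of 0.427%. There 8 of the 188 and 983 of all had an unadjusted p under 0.05 (edgeR), and DESeq2 called 0 of the 188 and 443 of all. Between DECe and DECe Gas Phase (n = 3 and 2), 0 were called, beside 0%, with 1 and 372 at an unadjusted p under 0.05 (edgeR) and 0 and 6 calls by DESeq2. Leaving out DECe Gas Phase replicate 5 or 4 leaves 1 library in that group, so only the size of change is given for those fits. For DECe Gas Phase against DE the median log2 fold change of the steady transcripts tested was 1.16 without replicate 5 and 0.66 without replicate 4. The medians of all tested were 0.71 and 0.04. For DECe against DECe Gas Phase the medians of the steady ones were -0.41 and -0.10 (all tested, 0.03 and 0.29). A count of 0 does not show that levels were alike, since the median log2 fold change of the 188 was 0.60 for DECe against DE and 0.90 for DECe Gas Phase against DE (medians of all tested, 0.47 and 0.64).

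For DECe against DE, the transcripts with the smallest p-value in each direction both missed the threshold. The higher one was psme_t008129 (3022 nt), at 0, 0, 0, 4.14, 6.56 and 11.9 CPM in the shallow DE libraries and 14.2, 45.6 and 91.9 CPM in the shallow DECe libraries. The measured values did not overlap, but the counts of 0 in DE replicates 1 and 8 allow up to 15.7 and 20.5 CPM, above the lowest DECe library. Its log2 fold change was 2.68 ± 1.08 (SE, n = 3 and 6, edgeR adjusted p = 0.719). The lower one was psme_t018835 (2068 nt), at 6.84 to 57.6 CPM in shallow DE libraries and 5.69, 11.4 and 13.7 CPM in shallow DECe libraries. These groups overlapped, and its log2 fold change was -2.36 ± 1.11 (SE, n = 3 and 6, edgeR adjusted p = 0.719).

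Over all 26 libraries, the 4 groups were set against each other in 1 fit. The deep libraries that chose the 200 enter it, so these counts are given as a description. All 200 passed the filter on low counts. Between DE and Air Control, 5 of the 200 (2.50%) were called, 1 higher and 4 lower in DE, beside a background of 8.40% of the 26942 transcripts tested (edgeR, adjusted p under 0.05). Between DECe and Air Control 0 of the 200 were called (background 0.152%), and likewise between DECe Gas Phase and Air Control (0.0594%), between DECe and DE (0.200%) and between DECe and DECe Gas Phase (0%). At an unadjusted p under 0.05 these 5 comparisons held 88, 0, 0, 37 and 1 of the 200 (edgeR), beside 22.3%, 10.1%, 7.19%, 15.1% and 4.26% of all transcripts tested. DESeq2 called 8, 0, 0, 7 and 0 of the 200, beside 8.87%, 3.56%, 2.20%, 3.13% and 0.0111% of all. With limma-voom 151, 0, 0, 102 and 0 were called, beside 43.7%, 3.14%, 2.06%, 34.6% and 0.0705%. The split of the DE calls turned with the scaling. Of the 200, 1 was higher and 4 lower with TMM, and 5 higher and 0 lower where edgeR used the size factors of DESeq2. All transcripts tested split into 1149 higher and 1114 lower calls with TMM (8.40%), and 1383 higher and 468 lower under these size factors (6.87%). Over all transcripts tested, the median log2 fold change of DE against Air Control was -0.51 under TMM, -0.17 under these factors and -2.005 when library sizes were used. Over the 200 it was -1.01, -0.58 and -2.36. The comparisons with Air Control share the same 6 control libraries.

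The transcript called higher in DE was psme_t000609, whose Air Control levels ran from 19.7 to 31.6 CPM (median 23.7 CPM) and whose DE levels, given above for the shallow libraries, were 32.4 CPM in the deep one. The groups overlapped. No p is given for single transcripts in this fit, since the choice fixed a small spread in its deep libraries. The fitted log2 fold change of psme_t000609 was 2.45 with TMM scaling, which multiplies the library size by 0.0616 to 0.351 in shallow DE libraries and by 0.756 to 4.00 in Air Control. With library sizes alone the direction turned, to -1.33, and limma on log2(RPKM + 1) also gave a negative value, -0.81.

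Of the lower ones, psme_t024396 (1755 nt) ran from 47.7 to 97.5 CPM in Air Control (median 67.5 CPM), and in DE it was at 0 counts in 5 of the 6 shallow libraries, at 25.3 CPM in replicate 12 and at 61.2 CPM in replicate 5, the deep one. Its fitted log2 fold change was -2.06. In psme_t013201 (2474 nt) Air Control ran from 59.1 to 84.2 CPM (median 65.7 CPM), the shallow DE libraries were at 0, 4.14, 4.37, 5.24, 13.7 and 31.3 CPM, and the deep one was at 32.3 CPM, so the groups did not overlap. Its fitted log2 fold change was -1.73. The other two, psme_t013141 (2480 nt) and psme_t025368 (1708 nt), are named after their values were seen. Both were at 0 in 5 shallow DE libraries and at 5.95 CPM in replicate 12, while DE replicate 5 stood at 36.4 and 21.9 CPM, within or near the Air Control ranges of 29.9 to 52.1 and 22.6 to 34.5 CPM. Their fitted log2 fold changes were -1.90 and -1.98.

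These calls moved with the libraries used. The deep libraries alone cannot show this, since the 200 were chosen for small spread in those same libraries. There DE has 1 library, assumed to vary like the other groups, so only the size of change is given. The median log2 fold change of DE against Air Control there was -0.35 over the 200 and -0.17 over all transcripts tested. Without DE replicate 5, 43 of the 200 were called between DE and Air Control (21.5%, beside 12.4% of all transcripts tested). Without DE replicate 12 the count was 17 (8.5%, beside 9.27%). It was 3 without DE replicate 1 or 4, 1 without DE replicate 6, 2 without Air Control replicate 11 and 1 without Air Control replicate 14, beside 5.67% to 6.99% of all. Shallow Air Control libraries do not occur, so depth and atmosphere cannot be told apart in this comparison.

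The list itself depended on how the counts were scaled and on which libraries were used. With TMM-scaled CPM, 81 of the 200 were still among the 200 steadiest, and with CPM of the full library total, dominant transcripts included, 74 were. With the median absolute deviation over the median in place of the CV, 72 were kept. A choice from the 6 Air Control libraries alone shared 75 with the list, and a choice from the 9 exposed deep libraries alone shared 91. Leaving out 1 deep library at a time kept 140 (without Air Control replicate 11) to 184 (without DECe replicate 4). Subtracting the counting variance kept 190.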

How the data were processed

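Poly(A) RNA of previous-year needles was sequenced in 26 libraries; groups came from the source label and replicate numbers from the title. Per the submitters' processing notes, CASAVA 1.8.2 was used. For the aligner, counting tool, reference and strand the sources used here give nothing. Transcripts with near-identical copies may share reads. The deposited table holds raw counts per transcript, per the file headers, and the deposited RPKM table was normalized by the authors. Neither holds sequences or gene names. Lengths are implied by counts over RPKM.

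The rule used identifiers, counts and CPM as the report gives them (CV with n - 1). Tests were edgeR 4.0.16 quasi-likelihood F tests (R 4.3.3; filterByExpr with a minimum count of 10, TMM, robust, Benjamini-Hochberg over all transcripts tested, adjusted p under 0.05). The SE is the log2 fold change over the signed root of F. Alternatives used DESeq2 1.42.0, limma 3.58.1 (voom with quality weights, or log2(RPKM + 1) and log2(RPKM + 0.1)), other scalings and filters, the replicate number as a block and leaving out each library. The fits and the choice of members were run on simulated data. All simulated libraries were drawn from 1 mean profile, apart from planted changes. They lacked the level differences seen between deep and shallow libraries, so they cannot show how the fits handle these. The members and the lists were chosen with earlier results of these data known.

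Named are the 4 steadiest transcripts, 2 on each side of the cut, the longest and shortest, the most and least abundant, the 2 with the highest and 2 with the lowest shallow to deep ratio, and those with the smallest p-values for DECe against DE (shallow libraries) and DE against Air Control, up to 2 in each direction. Depth was 2467403 to 60457187 total counts. A count of 0 allows 3 counts. Floors cover counting error only, since no molecular identifiers are named.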

Additional observations from a re-analysis of the deposited data

Results flagged for a closer look

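Among 88 sets of 4 to 7 libraries examined for a value set far apart from the others, 11 held one. The limit used flags about 1 set in 20 where values are independent and normally distributed. These sets share libraries, several hold counts of 0 and some mix deep and shallow libraries, so that rate need not apply. In Air Control, psme_t008129 was low in replicate 14, at 32.7 CPM, and psme_t016678 was high in replicate 15, at 45.8 CPM. Among the shallow DE libraries, replicate 12 stood apart from the other 5 for several values. It had 81.0% of the steady transcripts within 2-fold of the scaled deep mean. It was also the highest for psme_t012925 (31.3 CPM), psme_t017502 (26.8 CPM), psme_t020025 (7.44 CPM), psme_t022795 (44.7 CPM) and psme_t024396 (25.3 CPM). Of the shallow DE libraries, replicate 12 had the most counts left, 671763, once the identifiers up to psme_t000300 and the dominant transcripts were set aside. The part of depth in these values was not tested. DE replicate 1 was the highest for psme_t011516, at 31.4 CPM from 6 counts. In DECe Gas Phase, replicate 5 was the lowest in the summed level of the steady transcripts, at 5615 CPM, and the sole library with any of them at 0 counts, 19 of 200.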

How the results depend on the processing

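In the shallow libraries the alternatives run called 0 steady transcripts in all 3 comparisons, with 1 exception. Limma on log2(RPKM + 1) called 2.13% for DECe Gas Phase against DE, beside 1.44% of all. Limma on log2(RPKM + 0.1) was not run there. No steady transcript reached a mean of 50 counts there, so that filter gave no value. Over all libraries, DECe and DECe Gas Phase against Air Control and DECe against DECe Gas Phase gave 0 under every alternative run. Of the 200, and of all transcripts tested, DE against Air Control called 2.50% and 8.40% as reported. The shares were 0% and 5.71% with library sizes alone, 1.5% and 3.31% without a filter and 4.00% and 8.87% with DESeq2. They were 75.5% and 43.7% with limma-voom, 99.5% and 72.1% with limma on log2(RPKM + 1) and 99.0% and 89.8% with limma on log2(RPKM + 0.1). With 1 library left out they were 0.5% to 21.5% and 5.67% to 12.4%. The deep libraries alone, a setting chosen after seeing the data, are left out of these shares. The 200 were chosen for small spread there, and DE has 1 such library. DECe against DE called 0% and 0.200% as reported, 1.00% and 0.687% with DESeq2's size factors, 0.5% and 0.631% at a mean count of at least 50, 3.50% and 3.13% with DESeq2, 51.0% and 34.6% with limma-voom, 69.0% and 25.7% with limma on log2(RPKM + 0.1), and 0% to 3.00% of the 200 with 1 library left out (3.00% and 1.64% without DE replicate 5). The cause was not tested. The 200 shared 81 with the list under TMM-scaled CPM, 74 under full library totals, 72 by median absolute deviation, 75 from Air Control alone, 91 from exposed deep libraries alone, 120 with a window of 10 to 200 CPM and 140 to 184 with 1 library left out. Under full library totals the median shallow to deep log2 ratio was -3.46 and the median CV 0.291. The highest such ratio under another scaling or calculation was -0.98. Leaving out 1 library moved these medians from -1.55 to -1.23 and from 0.175 to 0.185. For psme_t000609 in DE against Air Control the log2 fold change reversed to -1.33 with library sizes alone and to -0.81 and -1.56 with limma on log2(RPKM + 1) and log2(RPKM + 0.1), and was 1.98 to 2.67 with 1 library left out. Calls of psme_t024396, psme_t013201, psme_t013141 and psme_t025368 ended in 4, 5, 6 and 7 of 13 fits with 1 library left out. All ended with library sizes alone. In 10 other settings, deep alone included, log2 fold changes stayed negative (-5.92 to -0.58, -4.86 to -1.20, -5.00 to -0.38 and -5.09 to -0.75). Over all transcripts tested, the settings that kept every library gave 218 to 24182 calls for DE against Air Control (2263 as reported). They gave 19 to 958 for DECe against Air Control (41) and 5 to 593 for DECe Gas Phase against Air Control (16). For DECe against DE they gave 28 to 9320 (54), and for DECe against DECe Gas Phase 0 to 61 (0). In the shallow libraries they gave 0 to 4 for DECe against DE (0), 0 to 443 for DECe Gas Phase against DE (38) and 0 to 6 for DECe against DECe Gas Phase (0). No count is given for the fits without DECe Gas Phase replicate 5 or 4, since 1 library is left in that group. With 1 DE library left out, DECe Gas Phase against DE gave 3 (without replicate 4 or 8) to 50 (without replicate 2).

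Deviations of same-numbered libraries correlated between groups at -0.32 to 0.21 across candidates (18 pairs, 4 over 0.1). Of 19 libraries, 2 correlated best with their own number. Most groups mix depths, so this cannot decide pairing. With the replicate number as a block, 0 of the 200 were called in DE against Air Control, where 218 of all transcripts were, and 0 in the other comparisons. In the shallow libraries no paired analysis was possible because no residual degrees of freedom were left.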
